A study of Mus musculus with 8 samples.

Results

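The collagen genes were followed here in libraries of cells that the study describes as microvascular endothelial. The mice carried LRP1, or had its deletion directed to the endothelium. Transcripts of fibroblast marker genes were more abundant in these libraries than those of endothelial marker genes. The collagen genes were taken as every row of the expression table whose gene symbol reads Col, a number, a and a number (such as Col1a1), a rule that used no expression value and found 43 of 22520 genes. By chain type, 11 of the 43 encode fibrillar collagens, 8 collagens of the basement membrane and 24 collagens of other kinds. In 25 of the 43 the level was high enough for the test across all genes, and the other 18 are described from their values. Of these 25 genes 1, the fibrillar collagen gene Col11a1, differed between the genotypes by that test, and it was higher in LRP1 KO. Of all 11389 tested genes 13.6% differed, and 6.27% were higher in LRP1 KO.

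Messenger RNA was sequenced from 4 wild-type (WT) and 4 LRP1 knockout (LRP1 KO) libraries of C57BL/6 mice at postnatal day 14, and the labels call every library a mixture of heart, liver and lung cells. LRP1 is a large endocytic receptor that binds many secreted proteins. The study screened endothelial cells of knockout and control mice for factors that such cells might secrete. WT mice were LRP1 f/f; Cdh5-CreER -/-, and LRP1 KO mice were their littermates of the genotype LRP1 f/f; Cdh5-CreER +/-, so that both groups carried the floxed allele and only LRP1 KO carried the inducible Cre, driven by the endothelial Cdh5 promoter. The methods of the study describe capture of such cells on beads against PECAM-1. An effect of the Cre transgene itself cannot be told apart from loss of LRP1 in this design. The sources used here do not say which libraries came from separate animals, so p-values measure the spread between these libraries.

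Collagens are extracellular proteins in which alpha chains wind into a rope-like helix. Fibrillar collagens (types I, II, III, V, XI, XXIV and XXVII) assemble into the banded fibrils of connective tissue, with types V and XI acting as minor partners that control how fibrils start and how thick they grow. Type IV collagen forms the sheet-like network of basement membranes, including the one on which endothelial cells sit, and types XV and XVIII are attached to that membrane. The remaining types link fibrils, form beaded filaments or short networks, or span the cell membrane. In most tissues fibroblasts and mural cells make the bulk of the fibrillar collagens, while endothelial cells themselves make type IV collagen.

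Values are in FPKM, which counts sequenced fragments relative to transcript length and library size, and had been quantile normalized across the libraries, so sums per library ran from 503571 to 504112 and sequencing depth is unknown. The unit was inferred from the values and the tools named for the series. Lrp1 itself was at 103 to 140 FPKM across WT and 2.79 to 7.72 across LRP1 KO, which matched the labels of all 8 libraries. These are levels of whole libraries, and which of the cell types in them lost Lrp1 was not tested. All 14 endothelial marker genes were detected in WT with a mean of at least 1 FPKM, but their summed level was 170 to 185 FPKM, against 1383 to 2051 FPKM for 12 fibroblast genes that are not collagens and 667 to 833 FPKM for 10 mural genes. Most of the fibroblast sum came from Dcn and Gsn, with WT means of 922 and 555 FPKM. Most of the mural sum came from Acta2 and Tagln, with WT means of 360 and 298 FPKM. They were named here for their levels, after their values were seen. LRP1 KO library 4 lay apart from the other LRP1 KO libraries, with 178 FPKM of endothelial markers against 390.4 to 614 FPKM, and 61.6% of all tested genes were inside the WT range in it, against 34.8% to 44.8% in LRP1 KO libraries 1 to 3. Among the 25 tested collagen genes, 11, 12, 12 and 13 lay inside the WT range in LRP1 KO libraries 1, 2, 3 and 4. Transcripts of 4 Y-linked genes summed to 0.112 FPKM in WT library 4 and 0.0955 FPKM in LRP1 KO library 2, and to 21.6 to 33.8 FPKM and 22.7 to 63.9 FPKM in the other WT and LRP1 KO libraries.

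Collagen transcripts were abundant in these libraries. Together the 43 genes held 0.817% ± 0.107 of the summed FPKM in WT and 0.793% ± 0.0948 in LRP1 KO (SD, n = 4 each), and the groups overlapped. The highest level in WT was that of Col1a2, at 882 ± 108 FPKM (SD, n = 4), which ranked 72 among all 22520 genes. It was followed by Col4a1 at 824 ± 125 FPKM, Col4a2 at 566 ± 71.1 FPKM, Col3a1 at 536 ± 98.1 FPKM, Col1a1 at 499 ± 72.5 FPKM and Col5a2 at 313 ± 39.7 FPKM (SD, n = 4 each). The WT ranges of Col1a2 and Col4a1 overlapped, as did those of Col4a2, Col3a1 and Col1a1, while each WT value of Col4a1 was above all of Col4a2 and each of Col5a2 below all of Col1a1. These 6 genes exceeded 100 FPKM in each of the 8 libraries. A wide gap separated them from the next, Col8a1, at 73.8 ± 15.7 FPKM in WT (SD, n = 4).

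**Figure D1:**
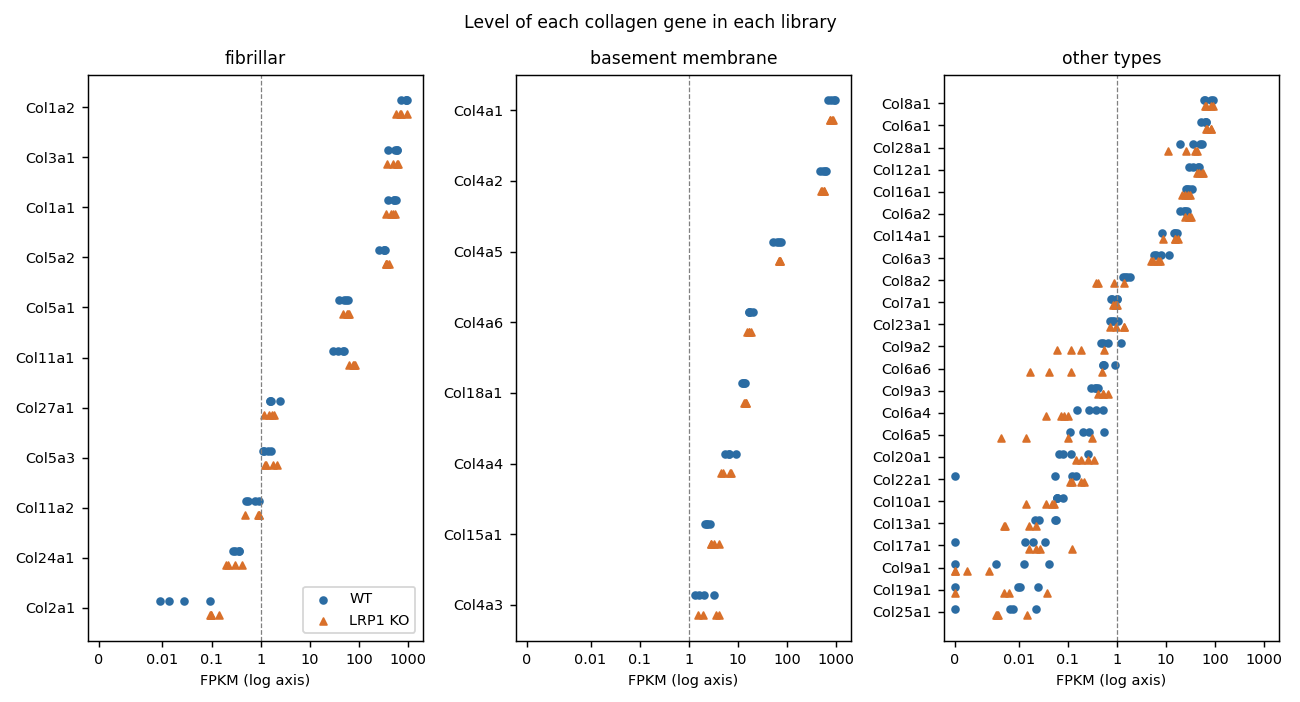
FPKM of each of the 43 collagen genes in each library on a log axis, with values of 0 at the left end, in panels for fibrillar, basement membrane and other types (circles, 4 WT libraries; triangles, 4 LRP1 KO libraries; dashed line, 1 FPKM). The fibrillar and type IV genes reach the highest levels, most low genes are of other types, and the LRP1 KO values of Col11a1 all lie to the right of its WT values.

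Col11a1 encodes the alpha 1 chain of type XI collagen, which lies inside heterotypic fibrils and limits their growth, and which can also join type V chains. WT libraries 1 to 4 had levels of 29.1, 37.5, 48.7 and 50.1 FPKM, and the 4 LRP1 KO libraries had 75.4, 80.1, 85.2 and 62.6 FPKM, in the order of their numbers here and throughout. The LRP1 KO values lay entirely above the WT values, with library 4 the lowest of them. The WT mean was 41.4 ± 9.89 FPKM and the LRP1 KO mean 75.8 ± 9.72 FPKM (SD over 4 libraries each), a ratio of 1.83. Col11a1 rose by 0.88 on the log2(FPKM + 1) scale (SE 0.17, 95% interval 0.51 to 1.26, limma adjusted p 0.0136), and the exact two-sided permutation test over the libraries gave 0.0286, the smallest p that 4 against 4 allow. In the 14 alternative analyses the rise was 0.73 to 0.98 with adjusted p-values of 0.00479 to 0.0466.

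Col11a1 (ENSMUSG00000027966) is protein-coding and occupies bases 114030540 to 114220718 of chromosome 3 on the plus strand (GRCm38). Its promoter is shown because it is the collagen gene that passed the test, beside those of Col5a1, its nearest partner chain, and Col3a1, an abundant fibrillar gene at which no difference was detected. Each run is the 250 bases before the annotated start on the coding strand, from RefSeq's GRCm38.p6 records, at chr3:114030290-114030539, chr2:27886175-27886424 and chr1:45311288-45311537, and holds no annotated exon. Capitals mark matches on either strand to 4 motifs that do not overlap here. The first is the TATA box, searched as TATAAA. The second is the CCAAT box, which is named by its letters. The GC box, bound by Sp1-like factors, was searched as GGGCGG. A FoxO site, included because the study examined FoxO factors, was searched as GTAAACA.
Col11a1: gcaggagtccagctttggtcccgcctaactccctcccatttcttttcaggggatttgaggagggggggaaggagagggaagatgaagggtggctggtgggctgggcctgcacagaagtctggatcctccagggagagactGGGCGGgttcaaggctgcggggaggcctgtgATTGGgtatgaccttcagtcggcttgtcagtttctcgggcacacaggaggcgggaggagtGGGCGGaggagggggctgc
Col5a1: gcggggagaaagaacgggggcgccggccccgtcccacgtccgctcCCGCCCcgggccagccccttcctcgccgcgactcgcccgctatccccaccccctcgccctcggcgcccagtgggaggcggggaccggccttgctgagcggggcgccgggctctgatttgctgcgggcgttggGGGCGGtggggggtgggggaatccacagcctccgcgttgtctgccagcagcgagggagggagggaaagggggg
Col3a1: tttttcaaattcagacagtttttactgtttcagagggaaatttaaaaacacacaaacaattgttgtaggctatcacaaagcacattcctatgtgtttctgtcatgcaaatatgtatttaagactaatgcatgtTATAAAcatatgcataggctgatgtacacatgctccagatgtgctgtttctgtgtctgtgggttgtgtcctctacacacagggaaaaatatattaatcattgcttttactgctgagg
The Col11a1 window held a CCAAT box 79 to 75 bases before the start and GC boxes at 110 to 105 and 19 to 14 bases. Col5a1 held GC boxes at 205 to 200 and 73 to 68 bases, and Col3a1 a TATA box at 117 to 112 bases. Among windows of this length upstream of all 32851 annotated starts, 12.4% held the TATA box, 33.8% the CCAAT box, 32.7% the GC box and 3.17% the FoxO site. For the 38 collagen windows, which belonged to 35 of the 43 collagen genes, the shares were 13.2%, 34.2%, 57.9% and 2.63%. The remaining collagen genes had no window in this search. The FoxO letters were in the window of Col6a1 alone among them. These are matches of letters and not measured binding.

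The other genes of the fibril-forming family are given by role, with estimates as log2 differences of LRP1 KO minus WT. Type I collagen, built from the products of Col1a1 and Col1a2, is the main fibril of connective tissue. Col1a1 measured 395, 565, 511 and 522 FPKM across WT, against 363, 500.4, 458 and 558 across LRP1 KO. Col1a2 measured 726, 973, 919 and 911 FPKM across WT, against 576, 711, 704 and 955 across LRP1 KO. In both genes library 1 was the lowest of its group and the groups overlapped, but for Col1a2 the other LRP1 KO libraries apart from library 4 were also below the lowest WT value. The estimates were -0.09 for Col1a1 (SE 0.14, 95% interval -0.42 to 0.24) and -0.28 for Col1a2 (SE 0.15, 95% interval -0.61 to 0.06), with limma adjusted p-values of 0.695 and 0.221. Col3a1, whose type III collagen is mixed with type I in distensible tissues such as vessel walls, measured 394, 602, 599.9 and 549 FPKM across WT, against 383, 594, 504 and 615 across LRP1 KO. Its groups overlapped almost wholly, with an estimate of -0.04 (SE 0.18, 95% interval -0.43 to 0.36, limma adjusted p 0.909).

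Type V collagen nucleates fibrils and is made from the products of Col5a1, Col5a2 and Col5a3. Col5a2 measured 254, 326, 343 and 328 FPKM across WT, against 355, 363, 373 and 414 across LRP1 KO. Each LRP1 KO library exceeded each WT library, by a small margin between WT library 3 and LRP1 KO library 1, and the estimate of 0.27 (SE 0.10, 95% interval 0.05 to 0.49) did not pass the threshold across all genes (limma adjusted p 0.0877). Col5a1 measured 40.4, 50.3, 54.2 and 59.0 FPKM across WT, against 48.5, 61.1, 61.9 and 57.5 across LRP1 KO, which overlapped (0.17, SE 0.12, limma adjusted p 0.338). Col5a3 was low, at 1.09 to 1.60 FPKM across WT and 1.22 to 2.17 across LRP1 KO (0.16, SE 0.13, limma adjusted p 0.434). Estimates of all type V genes were thus above 0 without one of them passing. Their summed level was 296 to 398 FPKM across WT and 404 to 472 across LRP1 KO, with no overlap. Col5a2 contributed most of that sum, so it repeats the pattern of that gene.

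Col27a1, a fibrillar gene known from cartilage, was at 1.56 to 2.49 FPKM across WT and 1.19 to 1.92 across LRP1 KO (-0.12, SE 0.13, limma adjusted p 0.546). The cartilage fibril genes Col2a1 and Col11a2 and the fibrillar gene Col24a1 were below the test's limit of 1 FPKM in at least 4 libraries. Col2a1 did not exceed 0.143 FPKM and Col11a2 lay between 0.470 and 0.934 FPKM, so the rise of Col11a1 was measured in libraries in which its usual partners in cartilage were below 1 FPKM in every library. Summed levels of 10 cartilage and bone genes outside the collagen family were 4.85 to 7.10 FPKM across WT and 5.84 to 9.33 across LRP1 KO. Of these only Sox9 and Runx2 were high enough to be tested, neither passed, and Ibsp was listed at 0 in every library.

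**Figure D2:**
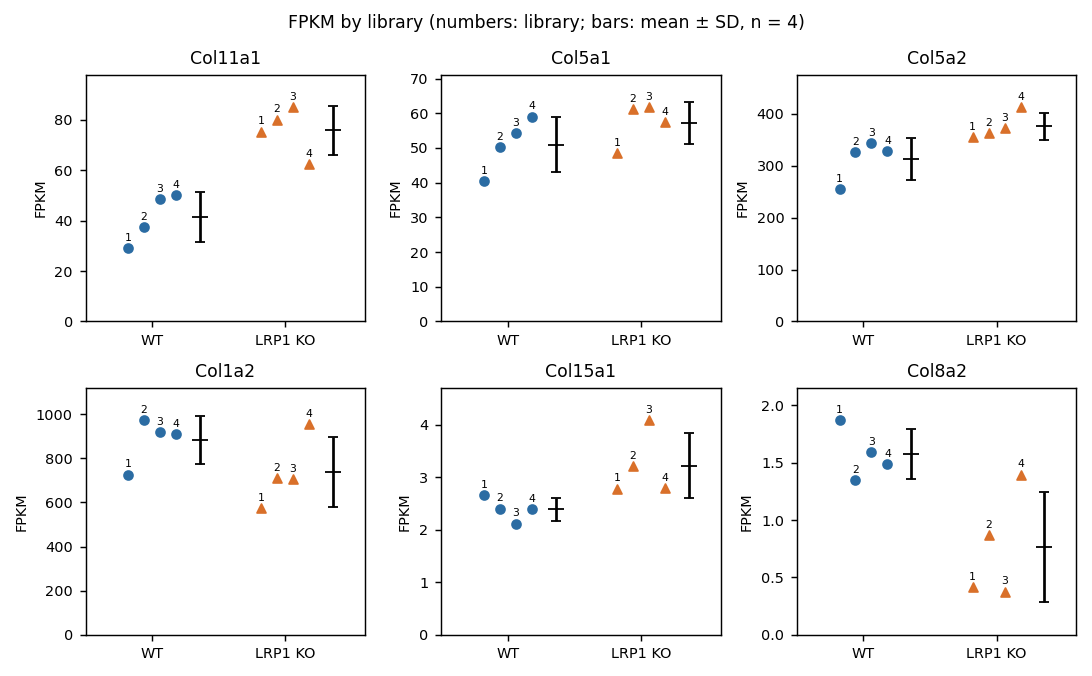
FPKM by library for 6 collagen genes (circles, WT; triangles, LRP1 KO; numbers, library; bars, mean ± SD of 4 libraries; each panel starts at 0). The groups do not overlap for Col11a1, Col5a2 and Col15a1, and LRP1 KO library 4 is the one closest to WT for Col11a1 and Col8a2 and lies among the WT values for Col1a2.

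Of the 8 basement membrane collagen genes, 0 passed the limma test, where 13.6% of all tested genes did. Col4a1 and Col4a2 encode the chains of the type IV network found in all basement membranes. Col4a1 measured 673, 771, 905 and 947 FPKM across WT, against 745, 752, 812 and 869 across LRP1 KO. Col4a2 measured 474, 549, 602 and 638 FPKM across WT, against 492, 511, 561 and 579 across LRP1 KO. For both genes all LRP1 KO values lay inside the WT range. The estimates were -0.04 (SE 0.11, 95% interval -0.29 to 0.20, limma adjusted p 0.812) and -0.07 (SE 0.10, 95% interval -0.29 to 0.15, limma adjusted p 0.63).

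The further type IV chains are restricted to certain basement membranes, such as those of the kidney filter and the lung. Col4a3 measured 1.60, 1.36, 2.03 and 3.20 FPKM across WT, against 3.66, 1.99, 4.04 and 1.52 across LRP1 KO, with LRP1 KO libraries 1 and 3 above the WT range (0.30, SE 0.25, limma adjusted p 0.436). Col4a4 was at 5.35 to 9.37 FPKM across WT and 4.55 to 7.20 across LRP1 KO (-0.20, SE 0.18, limma adjusted p 0.449). Col4a5 was at 52.9 to 75.3 FPKM and 67.7 to 72.7 FPKM (0.12, SE 0.10, limma adjusted p 0.403), and Col4a6 at 16.8 to 20.1 FPKM and 15.7 to 18.3 FPKM (-0.08, SE 0.07, limma adjusted p 0.469). All groups of these genes overlapped.

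Type XV and type XVIII collagens carry heparan or chondroitin sulfate chains and anchor the basement membrane to the matrix around it, and a fragment of type XVIII is the angiogenesis inhibitor endostatin. Col15a1 measured 2.66, 2.40, 2.12 and 2.39 FPKM across WT, against 2.79, 3.22, 4.09 and 2.79 across LRP1 KO. No LRP1 KO value fell into the WT range, with libraries 1 and 4 just above WT library 1. The estimate of 0.31 (SE 0.11, 95% interval 0.06 to 0.55) had a limma adjusted p of 0.0859. Col18a1 measured 12.2, 12.6, 13.7 and 13.2 FPKM across WT, against 14.1, 14.6, 13.5 and 14.7 across LRP1 KO, with LRP1 KO library 3 inside the WT range (0.13, SE 0.06, limma adjusted p 0.153).

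Among the collagens of other types, type VI forms beaded filaments close to cells. Col6a1 measured 51.9, 66.3, 61.9 and 66.4 FPKM across WT, against 65.6, 81.0, 80.8 and 69.4 across LRP1 KO. Col6a2 measured 19.6, 26.3, 24.2 and 23.4 FPKM across WT, against 24.6, 32.0, 30.0 and 29.1 across LRP1 KO. Library 1 was the lowest of its group in both genes and the LRP1 KO value of that library overlapped WT, while LRP1 KO libraries 2 to 4 exceeded the WT range. Neither estimate passed (0.27, SE 0.10, limma adjusted p 0.0974 for Col6a1, and 0.30, SE 0.10, limma adjusted p 0.0791 for Col6a2). Col6a2 passed in 1 alternative, with the replicate number as a block (limma adjusted p 0.028, where its alternatives ran from 0.028 to 0.185). Col6a3, which encodes the chain that completes the classical type VI molecule, had an estimate of the opposite sign (-0.26, SE 0.20, limma adjusted p 0.369), with 5.70 to 11.3 FPKM across WT and 4.89 to 7.49 across LRP1 KO.

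Type VIII collagen forms short-chain networks under endothelium and around smooth muscle. Col8a2 measured 1.87, 1.35, 1.59 and 1.49 FPKM across WT, against 0.415, 0.870, 0.376 and 1.40 across LRP1 KO. LRP1 KO libraries 1 to 3 were below every WT library and library 4 was inside their range, with an estimate of -0.58 (SE 0.17, 95% interval -0.97 to -0.19, limma adjusted p 0.0552). In LRP1 KO only library 4 reached 1 FPKM, so Col8a2 met the filter through WT, the group in which it was high. The LRP1 KO mean was 0.485 of the WT mean, and the pseudocount of 1 shrinks the estimate at this level: with 0.1 it was -1.11 (limma adjusted p 0.0628, with alternatives from 0.00502 to 0.144). Its partner Col8a1 was far more abundant, at 58.4 to 91.1 FPKM across WT and 62.1 to 91.9 across LRP1 KO (0.04, SE 0.17, limma adjusted p 0.906).

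Fibril-associated collagens sit on the surface of fibrils. Col12a1 measured 29.2, 35.9, 45.8 and 46.0 FPKM across WT, against 42.1, 56.2, 53.4 and 46.8 across LRP1 KO, with library 1 inside the WT range (0.35, SE 0.15, 95% interval 0.01 to 0.68, limma adjusted p 0.139). Col14a1, at 8.45 to 16.6 FPKM and 8.62 to 17.7 FPKM (0.05, SE 0.24, limma adjusted p 0.917), and Col16a1, at 25.1 to 33.1 FPKM and 21.3 to 31.5 FPKM (-0.13, SE 0.12, limma adjusted p 0.504), overlapped between the groups. Col28a1, a collagen best known from peripheral nerve, had the widest interval of the 25 tested genes. It measured 19.2, 36.1, 54.8 and 49.8 FPKM across WT, against 11.2, 38.5, 26.1 and 42.4 across LRP1 KO, and the 95% interval of its estimate ran from -1.44 to 0.49 (-0.48, SE 0.43, limma adjusted p 0.461). The estimate was -0.09 without LRP1 KO library 1 and -0.78 without WT library 1, and it did not pass in either case.

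**Figure D3:**
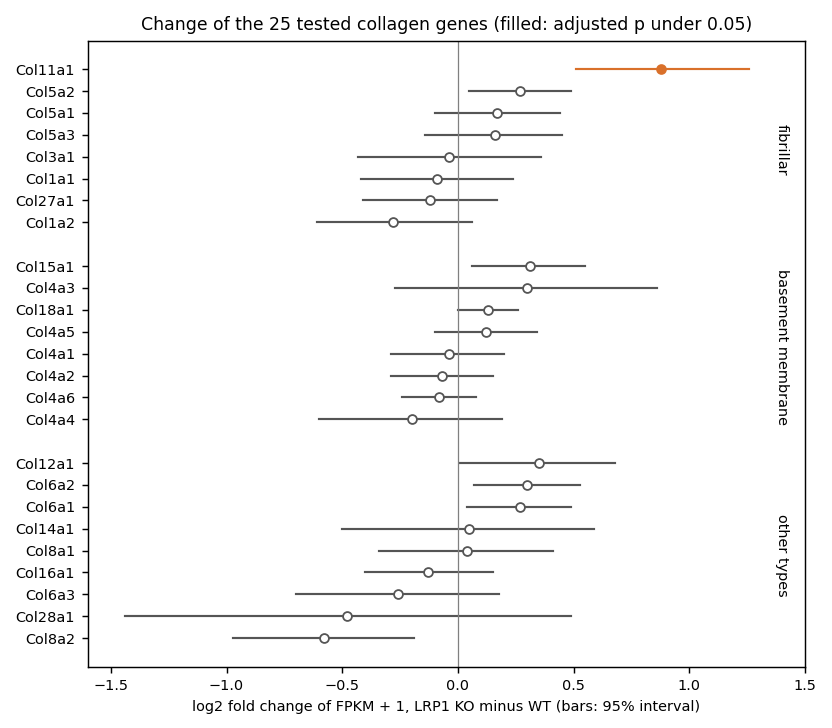
Estimated difference of each of the 25 tested collagen genes on the log2(FPKM + 1) scale, LRP1 KO minus WT, with its 95% interval from limma, in blocks by type (filled point, adjusted p under 0.05). The filled point is Col11a1 at 0.88, and the other 24 estimates lie between -0.58 and 0.35.

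Across the 25 tested collagen genes, 1 passed the threshold, or 4%, where 13.6% of all 11389 tested genes did. It was higher in LRP1 KO, the direction in which 6.27% of all tested genes passed, and 0 collagen genes passed in the lower direction, against 7.31% of all tested genes. At an unadjusted p under 0.05 in the same limma fit there were 7 of 25, where 33.7% of all tested genes met that threshold. Of these 7, 6 were higher (Col11a1, Col5a2, Col15a1, Col6a1, Col6a2 and Col12a1) and 1 lower (Col8a2), against 15.5% and 18.2% of all tested genes in these directions. Col8a2 met the filter through WT, the group in which it was high, so its count is no support for a difference. With the study's added limit of a 2-fold change, set on the log2(FPKM + 1) scale, 0 of 25 remained, against 1.62% of all tested genes. The values of the groups did not overlap in 3 of 25, or 12%, against 19.6% of all tested genes, and these were Col11a1, Col5a2 and Col15a1. The absolute estimates of the collagen genes had a median of 0.17 and their SE a median of 0.13, against 0.14 and 0.09 over all tested genes.

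The medians of fibrillar, basement membrane and other types were small and moved with single libraries. Of the 8 tested fibrillar genes, 4 had an estimate above 0 and 4 below, with a median of 0.06 and a range of -0.28 to 0.88. Of the 8 basement membrane genes, 4 were above and 4 below 0, with a median of 0.04 and a range of -0.20 to 0.31, and in limma 0 passed while 1, Col15a1, had an unadjusted p under 0.05. Of the 9 tested genes of other types, 5 were above and 4 below 0, with a median of 0.04 and a range of -0.58 to 0.35, and in limma 0 passed while 4 had an unadjusted p under 0.05. Col8a2, 1 of these 4, met the filter through WT, the group in which it was high. The share of all tested genes with an unadjusted p under 0.05 was 33.7%. The exact permutation test gave its smallest p, 0.0286, for Col15a1 and for none of those 9. The median over all tested genes was -0.01. Without WT library 1 the medians of the fibrillar, basement membrane and other genes were 0.03, -0.04 and -0.12, and without LRP1 KO library 1 they were 0.17, 0.06 and 0.12. With each library left out in turn they ran from 0.01 to 0.17, from -0.04 to 0.08 and from -0.12 to 0.14. A difference between the types was not tested.

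The classes were also compared by their summed levels. The fibrillar genes summed to 2327 ± 326 FPKM over WT and 2244 ± 355 FPKM over LRP1 KO, the basement membrane genes to 1497 ± 207 and 1443 ± 100.1 FPKM, and the other types to 294 ± 47.4 and 309 ± 43.0 FPKM (SD, n = 4 each). The groups overlapped in all of these sums. Fibrillar transcripts were 1.42 to 1.80 times basement membrane transcripts in WT and 1.34 to 1.71 times in LRP1 KO. Library 1 was the lowest of its group in many collagen genes, in 15 of 25 for WT and 18 of 25 for LRP1 KO.

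Ratios of partner genes were taken within each library from the quantile normalized values, which that normalization can also alter. The 9 pairs of chains were chosen after the values of the single genes were seen, and their ratios are a description with no test. Col1a1 over Col1a2 was 0.544, 0.581, 0.557 and 0.573 in WT and 0.631, 0.703, 0.651 and 0.585 in LRP1 KO. The gap between WT library 2 and LRP1 KO library 4 was narrow. Col11a1 over Col5a1 was 0.722, 0.746, 0.899 and 0.848 in WT and 1.56, 1.31, 1.38 and 1.09 in LRP1 KO, so that Col11a1 was the lower of the pair in each WT library and the higher in each LRP1 KO library. That ratio restates the separation of Col11a1 itself. The levels of Col4a1 over Col4a2 kept to 1.41 to 1.50 in WT and 1.45 to 1.52 in LRP1 KO. Col4a3 over Col4a4 was 0.245 to 0.341 and 0.311 to 0.561, and Col6a1 over Col6a2 was 2.52 to 2.84 and 2.38 to 2.69. The ratios of Col4a5 to Col4a6, Col6a3 to Col6a1, Col5a2 to Col5a1 and Col3a1 to Col1a1 overlapped between the groups as well. Only those of Col1a1 to Col1a2 and Col11a1 to Col5a1 did not overlap.

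Several of these pairs are neighbours in the genome. In GENCODE M21, Col4a1 and Col4a2 stand head to head on chromosome 8 and share 22 bases, Col4a3 and Col4a4 stand head to head on chromosome 1 with 71 bases between them, and Col4a5 and Col4a6 on chromosome X with 1308 bases. Col3a1 and Col5a2 lie 24614 bases apart on chromosome 1, and had estimates of -0.04 and 0.27. Col6a1 and Col6a2 lie on chromosome 10 with 85161 bases between them.

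**Figure D4:**
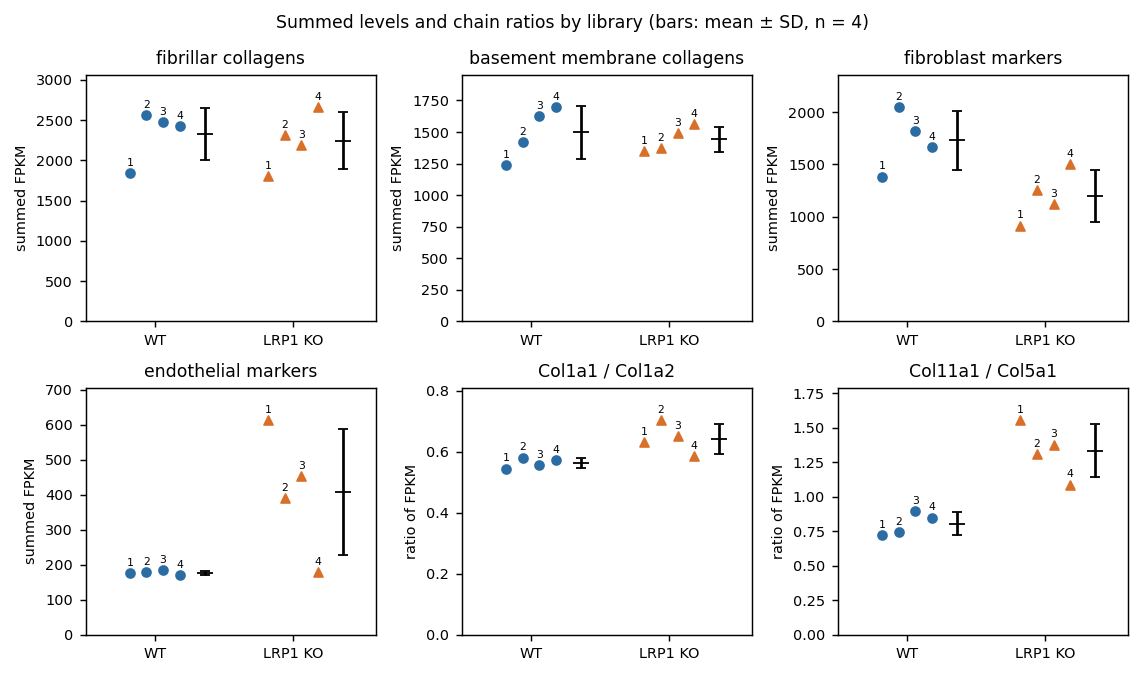
Summed FPKM of fibrillar and basement membrane collagens, of 12 fibroblast and 14 endothelial marker genes, and ratios of Col1a1 to Col1a2 and Col11a1 to Col5a1, by library (circles, WT; triangles, LRP1 KO; numbers, library; bars, mean ± SD of 4 libraries; each panel starts at 0). The collagen sums overlap between the groups, both ratios are separated, and LRP1 KO library 4 has the highest fibrillar and fibroblast sums and the lowest endothelial sum of its group.

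Some marker transcripts of several cell types differed between the groups. In bulk libraries a change in the number of cells cannot be told apart from a change in RNA per cell or in which genes the cells express. The marker counts stand against 6.27% of all tested genes that passed higher and 7.31% that passed lower in LRP1 KO. Fibroblast markers summed to 1383 to 2051 FPKM across WT and 915 to 1502 across LRP1 KO, with 5 of 11 tested genes lower (Dpt, Scara5, Lamc3, Pdgfra and Gsn) and a median log2 fold change of -0.96. Scara5, at 2.14 to 4.49 FPKM across WT and 0.0667 to 1.47 across LRP1 KO, met the filter through WT, the group in which it was high. Mural markers rose in 3 of 7 tested genes, the contractile genes Acta2 and Tagln and the filament gene Des, with 1033 to 1617 FPKM in LRP1 KO and a median of 0.51. Of the 7 mural estimates 6 were above 0 and 1 below, that of Pdgfrb (-0.31, SE 0.17, limma adjusted p 0.221). Macrophage markers rose in 10 of 11 tested genes, led by C1qb, Ctss and Lyz2, and summed to 45.2 to 89.9 FPKM across WT and 239 to 593 across LRP1 KO. Of these 10 genes, Adgre1 and Mrc1 reached 1 FPKM in LRP1 KO libraries only and so entered the test through the group in which they were high. Endothelial markers had a median of 0.82, with all 14 estimates above 0 and 1 gene, Eng, passing the test. Of 8 hepatic stellate cell genes 3 were tested and 2 rose (Hand2 and Des), with summed levels of 47.3 to 52.8 FPKM across WT and 67.6 to 82.8 across LRP1 KO, while the defining gene Lrat did not exceed 0.0454 FPKM. Des, which is also in the mural list, made most of that sum, at 39.3 to 45.9 FPKM across WT and 55.5 to 67.2 across LRP1 KO. Pdgfra, Gsn, Des and Eng were named because they passed, after their values were seen. Pdgfrb was named as the mural gene of opposite sign, also after its values were seen. The part of these shifts in the values of Col11a1, Col1a2 and the other collagen genes was not tested.

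LRP1 KO library 4 had the highest fibroblast sum and the lowest mural and endothelial sums of its group. Without it, 4 of 25 collagen genes passed, against 26.5% of all tested genes. Col11a1 rose by 0.97 (limma adjusted p 0.00479) and Col15a1 by 0.36 (limma adjusted p 0.049, where its alternatives ran from 0.049 to 0.195). Col1a2 fell by 0.41 (limma adjusted p 0.0313, with alternatives from 0.0313 to 0.477). The other was Col8a2, with an estimate of -0.74 (limma adjusted p 0.00502, with alternatives from 0.00502 to 0.144). The genes tested were chosen on all 8 libraries, and among the remaining 7 Col8a2 reached 1 FPKM in the 4 WT libraries only, the group in which it was high, so its call there is no support for a difference. Nothing in the labels sets that library apart.

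The 18 collagen genes below the filter included the remaining cartilage, transmembrane and minor chains. By the exact two-sided permutation test, 5 of them had no overlap between the groups and thus the smallest p of 0.0286, 2 higher (Col2a1 and Col9a3) and 3 lower (Col6a4, Col6a6 and Col10a1) in LRP1 KO. Among the 6637 genes below the filter with a value above 0, 10.1% had no overlap, 5.38% higher and 4.73% lower. When all genes with any value above 0 entered the limma fit, 0 of the 18 passed, against 6.45% of the genes in that fit and 4.22% of those below the filter. An unadjusted p under 0.05 was found for 7 of the 18, against 18% of the genes below the filter, and the lowest adjusted p was 0.0587, for Col6a4. The number of reads behind these low levels is unknown.

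The additional type VI chains lie in a row on chromosome 9 in the order Col6a6, Col6a5 and Col6a4, with 27917 and 28810 bases between them. They encode long chains that resemble Col6a3. Col6a4 measured 0.267, 0.511, 0.152 and 0.374 FPKM across WT, against 0.0843, 0.0988, 0.0368 and 0.0735 across LRP1 KO. Col6a6 measured 0.515, 0.915, 0.555 and 0.517 FPKM across WT, against 0.0171, 0.116, 0.0421 and 0.497 across LRP1 KO. In both genes the LRP1 KO values lay below the WT values without overlap, although library 4 almost reached WT in Col6a6. Col6a5 overlapped, with 0.266, 0.540, 0.205 and 0.110 FPKM across WT and 0.00428, 0.101, 0.0139 and 0.309 across LRP1 KO (exact permutation p 0.171).

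Type IX collagen decorates cartilage fibrils. Col9a2 measured 0.525, 1.22, 0.464 and 0.662 FPKM across WT, against 0.0607, 0.114, 0.184 and 0.545 across LRP1 KO, with library 4 again inside the WT range (exact permutation p 0.0857). Col9a3 measured 0.410, 0.373, 0.292 and 0.361 FPKM across WT, against 0.658, 0.521, 0.412 and 0.512 across LRP1 KO, the opposite order. Col2a1, the main cartilage fibril gene, measured 0.0280, 0.0138, 0.00891 and 0.0913 FPKM across WT, against 0.0930, 0.0967, 0.0985 and 0.143 across LRP1 KO, so that WT library 4 nearly met the LRP1 KO libraries.

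Of the remaining low genes, Col7a1 (anchoring fibrils of the skin, 0.742 to 1.02 FPKM over all libraries), Col23a1 (0.708 to 1.40 FPKM), Col11a2, Col24a1 (0.198 to 0.423 FPKM), Col20a1 (0.0649 to 0.347 FPKM) and Col22a1 (0 to 0.212 FPKM) overlapped between the groups. The last 6, Col9a1, Col10a1, Col13a1, Col17a1, Col19a1 and Col25a1, had a mean under 0.1 FPKM in each group and did not exceed 0.122 FPKM in any library.

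**Figure D5:**
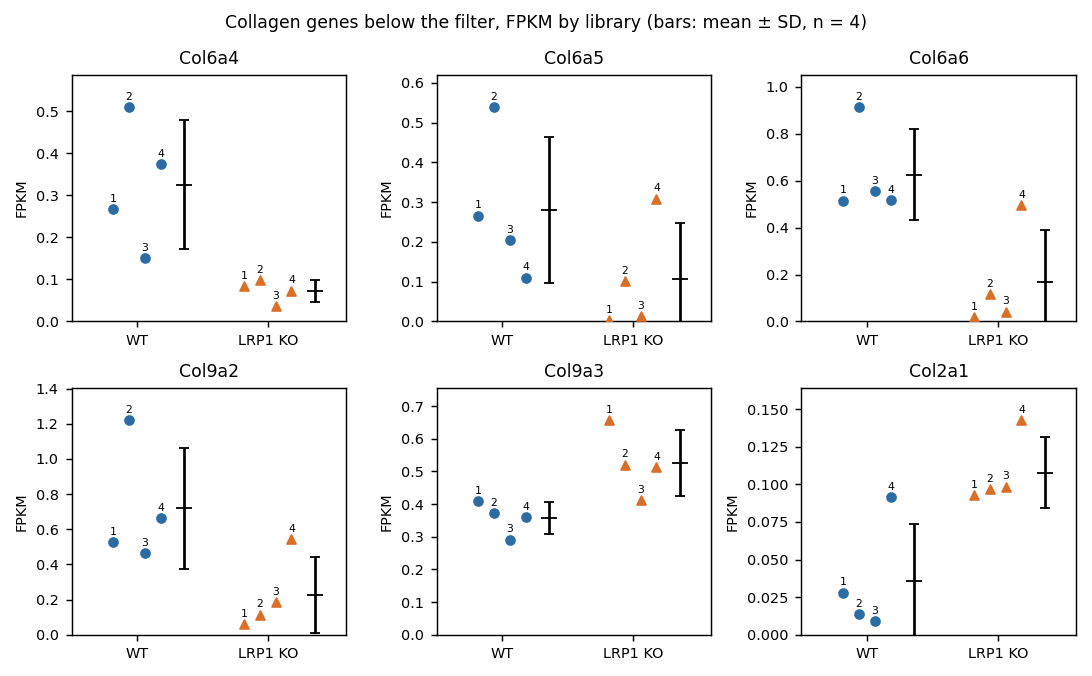
FPKM by library for 6 collagen genes below the filter (circles, WT; triangles, LRP1 KO; numbers, library; bars, mean ± SD of 4 libraries, drawn only above 0; each panel starts at 0). LRP1 KO values of Col6a4 and Col6a6 lie below and those of Col9a3 and Col2a1 above all WT values, and LRP1 KO library 4 is the highest of its group in Col6a5, Col6a6, Col9a2 and Col2a1.

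Collagen chains are hydroxylated and folded in the endoplasmic reticulum, cut free of their propeptides, cross-linked outside the cell, bound by receptors and broken down by proteases. Of 16 tested genes for folding and modification, 3 rose and 1 fell, with a median of 0.07, where 6.27% of all tested genes rose and 7.31% fell. The ones of largest change were P4ha1, a catalytic subunit of prolyl 4-hydroxylase (0.49, SE 0.08, limma adjusted p 0.00788), Crtap, part of the prolyl 3-hydroxylation complex (-0.45, SE 0.10, limma adjusted p 0.0231), and Plod2, a lysyl hydroxylase (0.44, SE 0.13, limma adjusted p 0.0474). The other was P4ha2 at 0.32 (SE 0.09, limma adjusted p 0.0392). Of 11 tested genes for propeptide removal and cross-linking, 3 rose and 0 fell, with a median of 0.33. They were the procollagen C-proteinases Tll1 (1.39, SE 0.33, limma adjusted p 0.0279) and Bmp1 (0.34, SE 0.07, limma adjusted p 0.0138) and the lysyl oxidase Loxl2 (0.33, SE 0.10, limma adjusted p 0.0489). Bmp1 and Loxl2 were named because they passed, after their values were seen, as was P4ha2.

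Of all tested genes, 13.6% passed in either direction. Of 7 tested collagen receptors 1 fell, Itga10, an integrin chain known from cartilage (-0.58, SE 0.16, limma adjusted p 0.0398), and 0 rose, with a median of -0.06. Of 6 tested collagen-degrading proteases 1 rose, the collagenase Mmp13 (0.96, SE 0.19, limma adjusted p 0.0153), and 0 fell, with a median of -0.21. A share of 1 gene in lists this short is near that background. Summed levels of these lists overlapped between the groups. For folding and modification they were 2162 to 2232 FPKM across WT and 2162 to 2352 across LRP1 KO, which is about the level of the fibrillar collagen genes themselves.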

How the data were processed

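RNA of the 4 WT and 4 LRP1 KO libraries was extracted with an RNeasy kit and prepared with a TruSeq kit. The FPKM values were deposited by the authors as 1 table of genes by libraries. The submitters' processing notes name TopHat2, Cufflinks and mm10, while the study's methods describe trimGalore, STAR and featureCounts for libraries of liver cells and of heart and lung cells. The header of the table names no unit, so FPKM was inferred from these notes and from values that are not whole numbers. The columns share 1 maximum (7793) and nearly 1 sum, as quantile normalization gives, and this removes depth, so that no counting error could be given and a shift common to most genes cannot be seen.

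Groups and replicate numbers came from the sample titles. Values were analysed as log2(FPKM + 1), a scale that understates changes of low genes. The filter asked for 1 FPKM or more in 4 libraries or more and passed 11389 of 22520 genes, and group was fitted as the only term in limma 3.58.1 (R 4.3.3) with a variance trend. P-values were adjusted by the Benjamini-Hochberg method over these genes, with a threshold of 0.05. Members below the filter were compared by an exact two-sided permutation test over the 70 assignments of libraries. The study's methods test counts, which these values are not. The script was tested on simulated data. Alternatives changed the pseudocount (0.1), the filter (none, or at least 5), the scaling and the variance trend, added the replicate number as a block, or left out each library. The value shown for a ratio or a sum is in plain FPKM.

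The collagen genes and the lists were chosen with earlier results of these data known. The lists, written from general knowledge, were endothelial, fibroblast, mural, hepatic stellate, macrophage, cartilage and bone, and Y-linked genes, and 4 lists of collagen folding, processing, receptors and proteases. Every collagen gene was named, and of each list at most 3 genes with the largest absolute change, apart from those said to be named after their values were seen. Gene positions are from GENCODE M21 (GRCm38, the assembly of mm10) and promoters from RefSeq (GRCm38.p6).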

Additional observations from a re-analysis of the deposited data

Results flagged for a closer look

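In 8 of 86 groups of 4 libraries (43 collagen genes in each genotype), 1 library lay far from the others by Dixon's criterion, which chance meets in about 1 of 20 groups. The only tested gene among them was Col27a1, at 2.49 FPKM in WT library 1 and 1.56 to 1.61 FPKM in the other WT libraries. The remainder were genes below the filter. In LRP1 KO library 3, Col19a1 was at 0.0371 FPKM (others 0 to 0.00623), Col17a1 at 0.122 FPKM (others 0.0163 to 0.0271) and Col11a2 at 0.470 FPKM (others 0.885 to 0.934). In LRP1 KO library 4, Col2a1 was at 0.143 FPKM (others 0.0930 to 0.0985), and in LRP1 KO library 1, Col25a1 was at 0.0151 FPKM (others 0.00349 to 0.00374). In WT, Col10a1 was at 0.0789 FPKM in library 4 (others 0.0591 to 0.0595) and Col6a6 at 0.915 FPKM in library 2 (others 0.515 to 0.555).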

How the results depend on the processing

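Over 14 alternative analyses, Col11a1 passed in 14 with the same direction. Of 345 results for single tested collagen genes, 341 stayed on their side of the threshold, and the other 4 newly passed under an alternative: Col6a2 with the replicate block, and Col15a1, Col1a2 and Col8a2 without LRP1 KO library 4. With 1 library left out, the number of collagen genes passing was 1 to 2 higher and 0 to 2 lower in LRP1 KO, both highest without LRP1 KO library 4, where 3021 genes in all passed. No collagen gene passed with a 2-fold change on the log scale of each analysis, a limit that a pseudocount of 1 makes harder to reach at low levels. The estimate of Col8a2 was -0.58 with a pseudocount of 1, -1.11 with 0.1 and -0.74 without LRP1 KO library 4. The median of the basement membrane genes was -0.06 with a filter of at least 5 FPKM, which drops low genes, and -0.04 to 0.08 with 1 library left out, the lowest without WT library 1. The fibrillar median ran from 0.01 to 0.17 and that of other types from -0.12 to 0.14. Estimates of 5 genes (Col1a1, Col3a1, Col4a1, Col8a1 and Col14a1), all within 0.09 of 0, changed sign in some alternative. With the replicate block, 2 collagen genes passed, both higher (Col11a1 with limma adjusted p 0.0323 and Col6a2 with 0.028), and 1013 genes in all. Deviations of same-numbered libraries had correlations of 0.158, 0.141, 0.34 and -0.312, and not every library correlated best with its own number, so the numbers were not taken to pair the libraries. Depth is unknown, so what it limits could not be computed.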
